A study of Mus musculus with 2 samples.

Results

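Neutrophils were examined among immune cells sorted from metastatic mouse lungs, with 1 niche and 1 distal library. Members were chosen by measured RNA: a cell barcode was taken as a neutrophil when S100a8 and S100a9 together made up at least 2% of its UMIs (tags that let each captured RNA molecule be counted once), when it held a UMI of at least 2 of the 5 genes Retnlg, Cxcr2, Csf3r, G0s2 and Hdc, and when C1qa, C1qb, C1qc and Ms4a7 summed to fewer than 10 UMIs. Barcodes entered with 200 genes or more and a mitochondrial share of no more than 10%, and 415 of the 6621 that did met these conditions. They were 30 of 3081 barcodes in the niche library and 385 of 3540 in the distal library. Both libraries came from female Balb/c mice whose lungs were taken 7 days after labelling 4T1 cells had been given into a vein. The 4T1 line was derived from a mammary carcinoma of the mouse and spreads to the lung, and labelling 4T1 cells are known to secrete a fluorescent protein that enters the cells around them, by which niche cells can be sorted apart from distal cells. No healthy lung is part of the comparison, so distal cells also come from lungs that carry the injected cells. No source used here gives the gates of the sort or says how many animals a library pools. With 1 library per group there is no replicate check: no test was made, differences hold for this pair of libraries, and the intervals given, at 95%, reflect counting error alone.

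Neutrophils are short-lived granulocytes made in the bone marrow. During maturation they fill their granules in a fixed sequence, first with primary granule proteins such as myeloperoxidase, then with secondary granule proteins such as lactoferrin and lipocalin, and last with gelatinase. Mature cells hold large amounts of the calcium-binding proteins S100A8 and S100A9, are held in and released from the marrow through the receptors CXCR4 and CXCR2, and in tissue make cytokines and chemokines that draw in further leukocytes. In lungs with metastases of mammary tumours they are known both for helping and for hindering the growth of tumour cells.

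Neutrophils were a smaller share of the niche library than of the distal library. They made up 0.974% of niche barcodes (Clopper-Pearson interval 0.658 to 1.39) and 10.9% of distal barcodes (9.87 to 11.9), a ratio of 0.0895 (0.0596 to 0.130). These are shares of a sorted sample and depend on what else each sort let in. A further 10 niche and 9 distal barcodes met the first conditions and were left out for their complement and Ms4a7 UMIs, the macrophage genes of the rule. They were deep barcodes, with medians of 14218.5 UMIs in the niche and 7740 in the distal library, and the lowest sum of the macrophage genes among them was 44 UMIs in the niche and 29 in the distal library, far above the highest sum in a member, 4 in the niche and 7 in the distal library. Counting them as neutrophils would therefore have changed the niche number by more, in proportion, than the distal number. The 3 members with the lowest S100 share had 2.10%, 3.43% and 3.80% in the niche library and 2.03%, 2.05% and 2.07% in the distal library. The barcodes just outside had 1.85%, 1.68% and 1.42% in the niche library and 1.99%, 1.93% and 1.87% in the distal library. The libraries shared 4 barcodes, and 0 of these were neutrophils.

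Neutrophils held little RNA compared with the other cells of their libraries. Their median was 1287 UMIs in the niche library (range 569 to 14132) and 1170 in the distal library (502 to 18142), against medians of 11197 niche and 5794.5 distal UMIs over all barcodes kept. The lowest deposited barcode had 501 UMIs in the niche and 500 in the distal library, so the smallest neutrophils lay at the edge of what the authors' files hold, and 9 niche and 126 distal members had fewer than 1000 UMIs. How many neutrophils lay under that edge cannot be seen in these files. Per cell, S100a8 and S100a9 took a median of 16.9% of UMIs in niche neutrophils (2.10 to 36.2) and 14.7% in distal neutrophils (2.03 to 46.9).

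A small number of members carried far more RNA than the rest, and most of these also carried RNA of other cell types. Over 4000 UMIs were found in 4 niche members, which together held 52.9% of all niche neutrophil UMIs, and in 43 distal members, which held 40.5% of the distal total. At least 2 defining markers of another cell type were present in 3 of these 4 niche members and in 32 of these 43 distal members. Among members with at most 4000 UMIs it was 4 of 26 niche and 11 of 342 distal cells. The markers were those of macrophages in 7 niche and 5 distal members, of classical monocytes in 3 niche and 22 distal members, of alveolar macrophages in 0 niche and 17 distal members, of B cells in 0 niche and 8 distal members and of T cells in 0 niche and 2 distal members. Eosinophil and basophil markers marked 0 members in both libraries. The deep niche members had S100 shares of only 3.43% to 6.39%. Whether these barcodes are cells of another type with neutrophil RNA around them, droplets with 2 cells, or neutrophils was not tested, and levels below are over all members unless said otherwise. The CPM of the S100 genes and of other neutrophil genes is higher without the deep members, and levels without them are given for the leading genes and for the comparison of niche with distal cells.

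**Figure D1:**
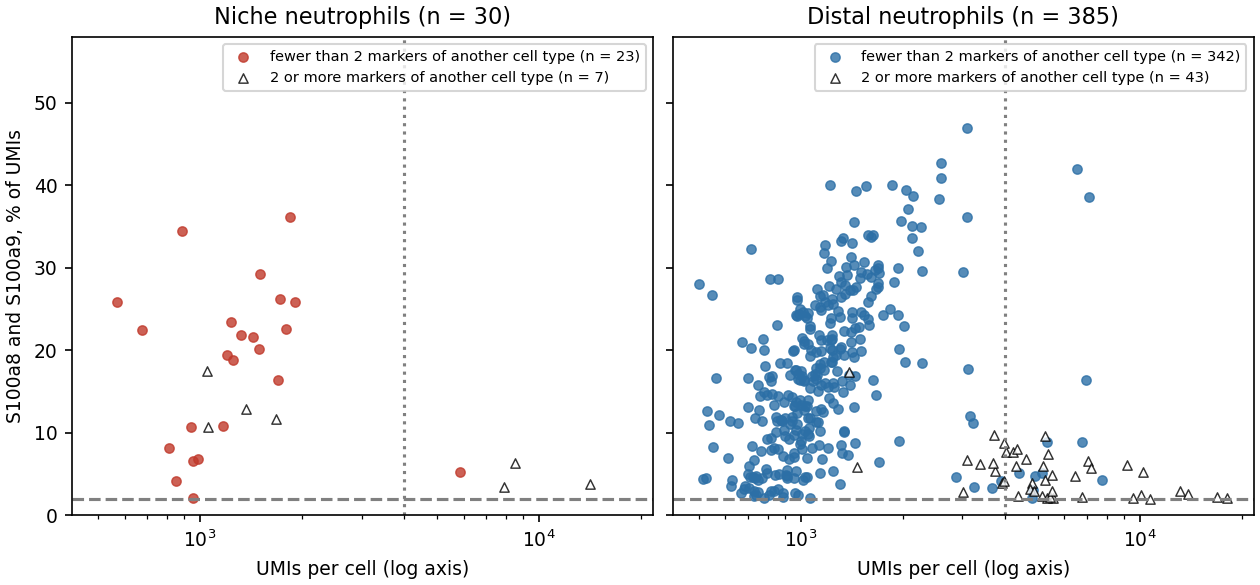
Each point is 1 neutrophil, with its UMIs on a log axis and the percent of them from S100a8 and S100a9, for 30 niche cells on the left and 385 distal cells on the right. Open triangles hold 2 or more defining markers of another cell type (7 niche, 43 distal), the dashed line is the 2% minimum and the dotted line 4000 UMIs. Most cells lie near 1000 UMIs with a broad spread of S100 share, and the cells to the right of 4000 UMIs are mostly low in S100 share and mostly triangles.

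After the alarmins of the rule, the most abundant RNAs were genes that most cells use, such as Malat1 and Tmsb4x, and Il1b was the highest cytokine. UMIs were summed over the members of a library and given as counts per 1000000 of their UMIs (CPM); with counts from the 3′ end of transcripts, levels of different genes can be set side by side without a length term. The calcium-binding alarmin subunits came first, S100a9 with 71915 CPM in niche and 82570 CPM in distal neutrophils and S100a8 with 41604 CPM in niche and 50562 CPM in distal neutrophils. Without the deep members S100a9 had 121930 CPM in niche and 114360 CPM in distal cells. Malat1, a nuclear non-coding RNA, had 33425 CPM in niche and 31412 CPM in distal cells and Tmsb4x, which binds actin, 18335 CPM in niche and 21578 CPM in distal cells. Il1b, the inflammatory cytokine interleukin-1 beta, followed. It had 16516 CPM in niche neutrophils and 18384 CPM in distal neutrophils and had a UMI in 100% of niche and 99.7% of distal cells. Without the deep members it had 26759 CPM in niche and 25860 CPM in distal neutrophils. Among lymphocyte barcodes of the same libraries, which should not make it and show how much free RNA a droplet takes up, 32.0% of niche and 16.2% of distal barcodes had an Il1b UMI. These lymphocyte barcodes were deeper, with medians of 2718 niche and 3143 distal UMIs. Of other genes known from neutrophils, G0s2, an inhibitor of fat breakdown, had 6243 CPM in niche and 7604 CPM in distal cells (10135 CPM in niche and 11131 CPM in distal cells without the deep members). S100a6, a calcium-binding relative of the rule genes, had 4351 CPM in niche and 4759 CPM in distal cells, against 381 CPM in niche and 639 CPM in distal non-members. Cxcl2, a chemokine that attracts neutrophils themselves, had 3172 CPM in niche and 5079 CPM in distal cells. Retnlg, a secreted resistin-like protein of mature neutrophils, had 3522 CPM in niche and 4892 CPM in distal cells; G0s2 and Retnlg belong to the rule, so that their height in members was fixed by it. Cebpb, a transcription factor of emergency granulopoiesis, had 2881 CPM in niche and 4010 CPM in distal cells.

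The receptors by which neutrophils are called and kept alive were measured in most cells. Csf3r, the receptor for the growth factor G-CSF, had a UMI in 93.3% of niche and 86.8% of distal neutrophils, against 10.7% of niche and 3.68% of distal lymphocyte barcodes. Cxcr2, the receptor for CXCL2 and its kin, had a UMI in 73.3% of niche and 77.7% of distal neutrophils, against 1.33% of niche and 1.47% of distal lymphocyte barcodes. Both genes belong to the rule, so their presence is a description. Outside the rule, Trem1, an amplifying receptor of inflammation, had 990 CPM in niche and 1000 CPM in distal neutrophils, and Ccr1, a receptor for inflammatory chemokines, 800 CPM in niche and 828 CPM in distal neutrophils. Mmp9, the protease called gelatinase B, had a UMI in 50% of niche and 63.4% of distal neutrophils, against 1.33% of niche and 1.10% of distal lymphocyte barcodes. The survival factor Mcl1 had 2838 CPM in niche and 2863 CPM in distal cells and the kinase gene Pim1 1542 CPM in niche and 1575 CPM in distal cells. Tnf was low, with 43.7 CPM in niche and 40.8 CPM in distal cells, close to its level in non-members, 42.8 CPM in the niche and 42.6 CPM in the distal library. The neutrophil levels of Tnf rest on 3 niche and 30 distal UMIs, of which 2 niche and 15 distal UMIs were in members with over 4000 UMIs. Siglecf, described on long-lived neutrophils of mouse lung tumours, had 0 UMIs in niche and 7 UMIs in distal neutrophils, whose level of 9.52 CPM lay under that of distal non-members at 52.5 CPM.

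Neutrophils were also set beside classical monocytes, the other short-lived myeloid cells that come from the blood. Barcodes with at least 3 of the monocyte genes Ly6c2, Ccr2, Vcan and F13a1 numbered 20 in the niche and 68 in the distal library, with medians of 11077 niche and 5094 distal UMIs. Genes of the rule had to differ and are left out here. Of genes outside the rule, Trem1 had 990 CPM in neutrophils and 24.3 CPM in monocytes of the niche library, and 1000 CPM in neutrophils and 83.5 CPM in monocytes of the distal library. Il1b was higher in neutrophils too, with 16516 CPM against 2270 CPM in monocytes of the niche library and 18384 CPM against 3656 CPM in monocytes of the distal library. Lyz2, the lysozyme of all myeloid cells, ran the other way, with 3783 CPM in neutrophils and 11978 CPM in monocytes of the niche library, and 6231 CPM in neutrophils and 28128 CPM in monocytes of the distal library.

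**Figure D2:**
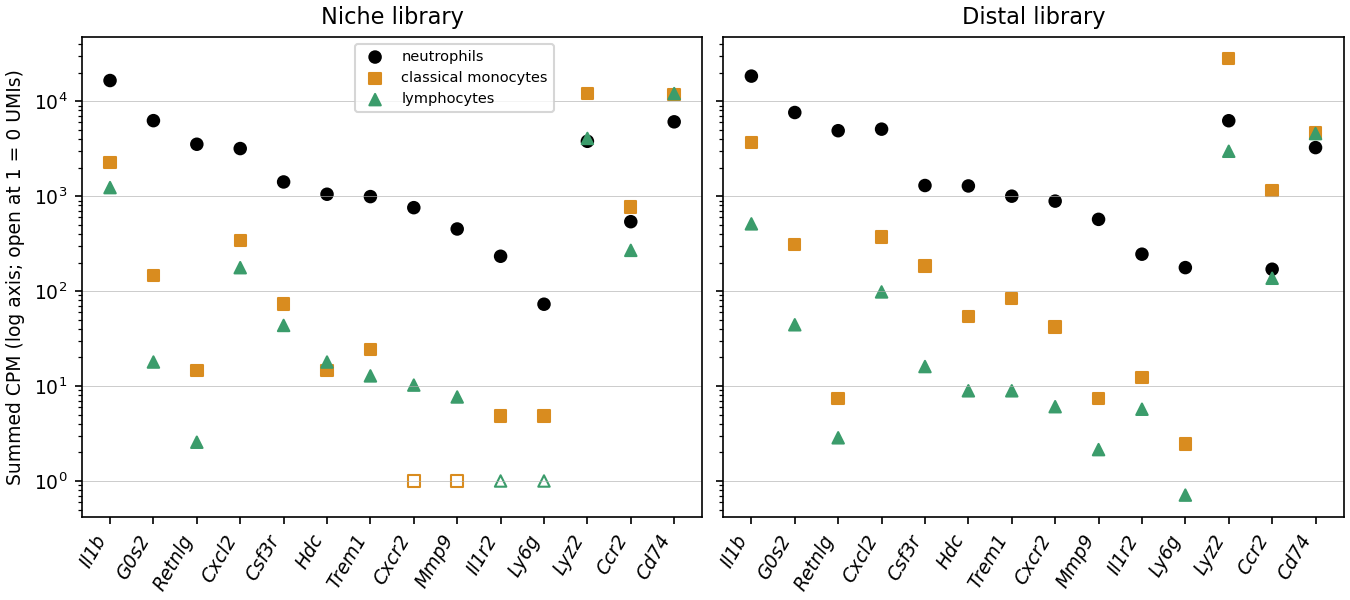
Summed CPM on a log axis of 14 genes in neutrophils (circles), classical monocytes (squares) and lymphocytes (triangles), with the niche library on the left and the distal library on the right; open symbols at 1 stand for 0 UMIs. From Il1b to Ly6g neutrophils are the highest of the 3 groups in both libraries, as G0s2, Retnlg, Csf3r, Hdc and Cxcr2 had to be by the rule, whereas Lyz2 is highest in monocytes. Ccr2 is highest there too, but it is a gene by which the monocytes were chosen.

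RNA of the primary granule genes Mpo, Elane and Ctsg was at 0. That of the secondary granule genes Camp and Ngp lay in few members, while other granule genes were found in more cells. The primary granule genes Mpo, Elane and Ctsg, made in promyelocytes, had 0 UMIs in the neutrophils of both libraries. Other genes of that list were not all at 0, and Prtn3 had 5 distal UMIs. Over the 8 listed genes found, summed CPM was 990 in niche and 339 in distal neutrophils. The 1 gene that could be compared was at least 2-fold higher in the niche (log2 1.68). Without the deep members the sums were 309 CPM in niche and 61.7 CPM in distal cells. Of 16 secondary granule genes 11 could be compared. Hp, which encodes haptoglobin, was present in 93.3% of niche and 93.8% of distal cells, with 1892 CPM in niche and 2100 CPM in distal cells. Lcn2 was found in 50% of niche and 45.7% of distal cells and Ly6g in 13.3% of niche and 17.4% of distal cells. Camp, the cathelicidin gene, and Ngp, the neutrophilic granule protein gene, which are made at the myelocyte stage, had 0 UMIs in niche neutrophils and 637 and 563 UMIs in distal neutrophils. These UMIs lay in few cells: 5 distal cells held Camp, and the leading cell alone held 382 of its UMIs, 283 UMIs of Ngp, 77 of the lactoferrin gene Ltf and 144 of Lcn2, with 1 UMI of Il1b and 1 of Retnlg. A second cell held 230 Camp, 218 Ngp and 45 Ltf UMIs together with 3 UMIs of Mki67 and 7 of Top2a, genes of dividing cells, and 7 of Cebpe, which drives granulocyte maturation. S100a8 and S100a9 took 42.0% and 38.6% of the UMIs of these cells. With 6527 and 7112 UMIs both belong to the deep members, and 0 other cell types had 2 markers in either. Another, with 23 Camp UMIs, had 194 UMIs of Retnlg and 43 of Il1b. Against a floor of 3 UMIs over the niche members, 43.7 CPM, Camp was at least 19.8-fold lower and Ngp at least 17.5-fold lower in the niche; the counting intervals of the log2 ratios end at -4.01 for Camp and -3.83 for Ngp, somewhat nearer to 0. These bounds concern summed RNA, most of it in the deep members, without which Camp had 0 niche and 25 distal UMIs and Ngp 0 niche and 59 distal UMIs. A Camp UMI was in 5 of 385 distal cells (1.30%), and 0 of 30 niche cells allows a share with a UMI of up to 10.0% by the count of 3 and up to 11.6% by the Clopper-Pearson interval, so a difference in that share was not detectable at this depth.

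Along the S100 share, which varied widely among members, other genes varied with it. The 342 distal members with at most 4000 UMIs were cut into quartiles of 86, 85, 85 and 86 cells, with median S100 shares of 4.88%, 12.7%, 20.02% and 29.0%. The cells lie on a continuum, with 9.21% and 9.30% on the sides of the first boundary and 24.3% on both sides of the last, so the quartiles are ranges and not types. Levels were taken over UMIs other than S100a8 and S100a9, so that a larger S100 share did not lower them. Median UMIs were 911, 998, 1147 and 1432 from the lowest to the highest quartile, and 0 cells of the highest and 9 of the lowest carried 2 or more markers of another cell type. Levels are sums, so cells with more UMIs weigh more. Without S100a8 and S100a9 the lowest quartile held 104479 UMIs and the second 80383, at the same median of 865. A few cells with many UMIs thus supply much of the lowest quartile, and their part in its levels was not tested. Of 739 genes compared, 68 were at least 2-fold higher in the highest quartile than in the lowest (9.20%) and 118 at least 2-fold lower (16.0%).

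The genes that were higher included granule proteins and secreted proteins of neutrophils. Retnlg had 881, 2413, 8308 and 22802 CPM from the lowest to the highest quartile, a log2 difference of 4.69 (4.39 to 5.01) between the ends. Since Retnlg also belongs to the rule, that gradient is given as a description. Lcn2, the iron-withholding lipocalin of secondary granules, had 402, 535, 1710 and 5255 CPM (log2 3.69, 3.25 to 4.20). Mmp8, neutrophil collagenase, had 86.1, 411, 461 and 1151 CPM (log2 3.67, 2.76 to 4.91). Ly6g, the surface antigen by which mouse neutrophils are sorted, had 57.4, 62.2, 218 and 697 CPM (log2 3.50, 2.40 to 5.10), and 38.4% of cells in the highest and 4.65% in the lowest quartile had a UMI. Wfdc21, a whey-acidic secreted protein, had 574, 1306, 1759 and 4259 CPM, and S100a6 3159, 5001, 8478 and 14493 CPM. Fpr1, the receptor for bacterial formyl peptides, was 2.53 higher on the log2 scale (1.64 to 3.66) and the sheddase gene Adam8 1.82 (1.06 to 2.70). Stefin genes were uneven between cells: Stfa2 had 19.1, 187, 24.3 and 852 CPM and was found in 9.30% of cells of the highest quartile.

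Read by list, 7 of 10 secondary granule genes compared were at least 2-fold higher in the highest quartile and 1 was at least 2-fold lower, with a median log2 difference of 1.40, beside 0.04 over all genes compared. The gene that was lower was Cybb, the oxidase subunit gp91phox, which sits in these granules and elsewhere (log2 -1.10). Of 13 gelatinase granule and secretory genes 4 were at least 2-fold higher, among them Mmp9 with 1361 CPM in the highest and 613 CPM in the lowest quartile, and 0 were lower. Of 8 glycolysis and hypoxia genes 4 were at least 2-fold higher and 0 lower (median 0.98). These were Gapdh, Aldoa, the lactate carrier Slc16a3 and the glucose carrier Slc2a3, with log2 differences of 1.06, 1.06, 1.07 and 1.19, all close to the 2-fold line. Of 27 mature neutrophil genes 5 were at least 2-fold higher and 1 lower (median 0.28): Retnlg, Stfa2, Stfa2l1, BC100530 and Ccl6 were higher and Rsad2 was lower. Some genes of the rule lay within 2-fold: Csf3r had 2323 CPM in the highest and 2106 CPM in the lowest quartile, Cxcr2 1615 CPM in the highest and 1311 CPM in the lowest, and Hdc 2069 CPM in the highest and 2316 CPM in the lowest. Il1b, the leading cytokine, had 30181 CPM in the highest and 26541 CPM in the lowest quartile, a log2 difference of 0.19.

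Other genes had lower levels at higher S100 shares. Cxcl10, an interferon-induced chemokine for T cells, had 613, 187, 84.9 and 33.2 CPM from the lowest to the highest quartile (log2 -3.99, -6.52 to -2.59), but its UMIs lay in 2.33% of cells of the lowest quartile. Plac8 had 1196, 684, 267 and 232 CPM (log2 -2.34, -3.11 to -1.69) and the interferon-induced Ly6e 1168, 435, 412 and 155 CPM (log2 -2.87, -3.83 to -2.11). H2-K1, the heavy chain of MHC class I, had 1761, 1045, 679 and 420 CPM, and 31.4% of cells in the highest and 65.1% in the lowest quartile had a UMI. Nr4a1, an orphan nuclear receptor of the immediate early response, had 266 CPM in the highest and 1015 CPM in the lowest quartile (log2 -1.91), and Gadd45b, a stress-response gene, 232 CPM in the highest and 823 CPM in the lowest (log2 -1.80). All 4 MHC class II genes compared were at least 2-fold lower, led by Cd74, the invariant chain, with 177 CPM in the highest and 1627 CPM in the lowest quartile. MHC class II is a product of macrophages, dendritic cells and B cells, and the lowest quartile is also the one with 9 carriers of other cells' markers. Without carriers of such markers the log2 difference of Cd74 was -2.76, that of Plac8 -1.70, that of Ly6e -2.22 and that of Retnlg 4.83. Cells with many UMIs but fewer than 2 such markers remain in these values. Of 8 type I interferon genes 0 were at least 2-fold higher and 1 at least 2-fold lower, Rsad2, and the median was -0.52.

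**Figure D3:**
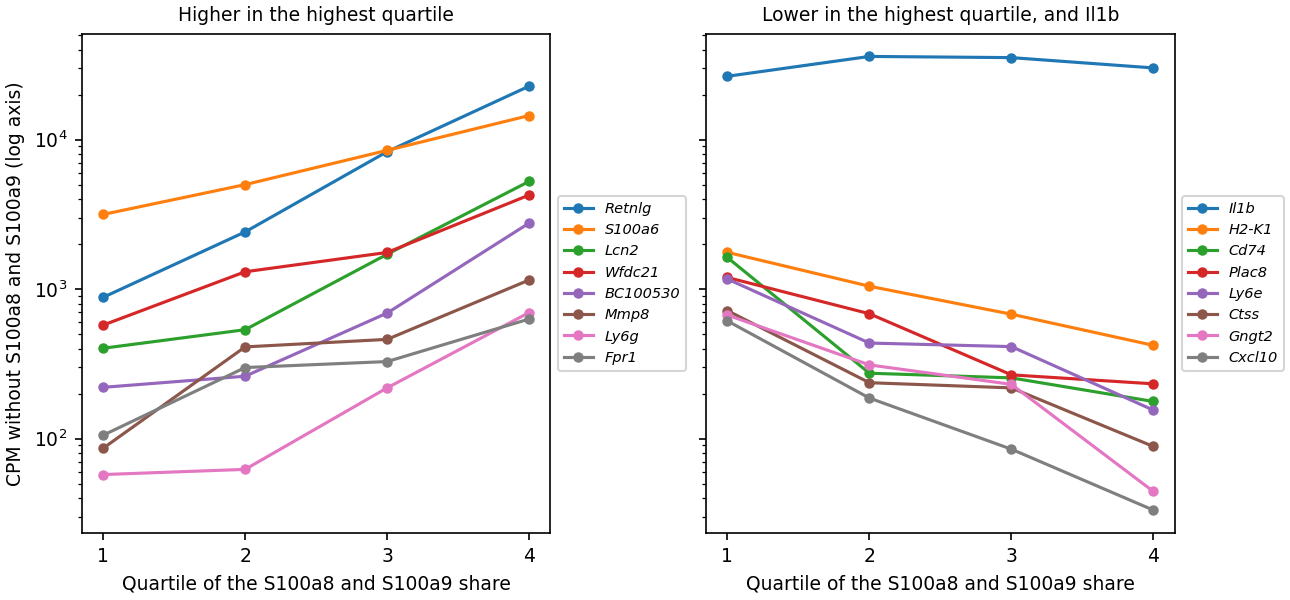
CPM on a log axis, over UMIs other than S100a8 and S100a9, of 16 genes in the 4 quartiles of the S100 share of 342 distal neutrophils with at most 4000 UMIs. The 8 genes on the left climb at every step, with Retnlg at 22802 CPM in the highest quartile against 881 CPM in the lowest, while 7 on the right decline at every step and Il1b at their top stays between 26541 and 36028 CPM.

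The niche neutrophils were not used to cut these quartiles and were read along the same axis. The 26 niche members with at most 4000 UMIs were divided at their own median S100 share of 19.1% into 13 cells above and 13 cells at or below it. Wfdc21 had 45 above and 4 below (log2 3.34, 2.04 to 5.43), S100a6 had 175 above and 45 below (log2 1.95, 1.48 to 2.47), and Lcn2 had 29 above and 5 below (log2 2.42, 1.15 to 4.26). Cd74 had 9 UMIs above and 35 below (log2 -1.90, -3.20 to -0.87), and 0 cells above and 4 below carried other markers. Retnlg, a gene of the rule, had 129 UMIs above and 36 below, as a description. Of the 45 genes that stood out as higher in the distal quartiles, 41 had at least 5 niche UMIs and 34 of these were higher in niche cells above the median. The rule genes G0s2 and Retnlg are among the 45, and the S100 share that divides the cells is itself part of the rule. Of the 31 that stood out as lower, 26 had at least 5 niche UMIs and 20 of these were lower above the median. Over all genes compared, 54.4% of 658 were higher above the median.

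S100a8 and S100a9 are neighbours on chromosome 3 (chr3:90668978-90670035, plus strand, and chr3:90692632-90695721, minus strand, in GENCODE M21 on GRCm38), Retnlg lies at chr16:48872621-48874496 and Lcn2 at chr2:32384633-32388252. Their promoters, 250 bases before to 50 bases after the transcription start in RefSeq on GRCm38.p6, are shown because these genes carry the axis above. Capitals mark matches, on either strand, to TTNNGNAA, a form of the motif bound by C/EBP factors such as the product of Cebpb, and to GAGGAA, a core bound by PU.1, both of which are known regulators of granulocyte genes. The windows are chr3:90668821-90669120 on the plus strand for S100a8, chr3:90695672-90695971 on the minus strand for S100a9, chr16:48872358-48872657 on the plus strand for Retnlg and chr2:32387690-32387989 on the minus strand for Lcn2, each written 5′ to 3′ along its gene.
S100a8: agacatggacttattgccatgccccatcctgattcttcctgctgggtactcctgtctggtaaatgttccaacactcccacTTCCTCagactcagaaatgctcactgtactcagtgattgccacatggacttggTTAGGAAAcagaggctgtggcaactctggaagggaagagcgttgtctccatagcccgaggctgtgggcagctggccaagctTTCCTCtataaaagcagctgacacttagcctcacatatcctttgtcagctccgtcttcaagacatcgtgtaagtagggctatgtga
S100a9: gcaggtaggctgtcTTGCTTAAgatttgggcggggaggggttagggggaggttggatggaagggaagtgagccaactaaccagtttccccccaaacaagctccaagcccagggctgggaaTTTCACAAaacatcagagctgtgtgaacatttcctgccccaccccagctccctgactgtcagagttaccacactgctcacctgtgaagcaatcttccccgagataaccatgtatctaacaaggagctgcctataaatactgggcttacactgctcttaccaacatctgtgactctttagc
Retnlg: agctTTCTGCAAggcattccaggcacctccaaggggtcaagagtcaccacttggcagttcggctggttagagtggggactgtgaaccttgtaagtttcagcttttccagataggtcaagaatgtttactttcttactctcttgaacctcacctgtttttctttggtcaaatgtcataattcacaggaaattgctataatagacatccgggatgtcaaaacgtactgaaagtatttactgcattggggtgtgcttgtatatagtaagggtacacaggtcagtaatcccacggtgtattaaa
Lcn2: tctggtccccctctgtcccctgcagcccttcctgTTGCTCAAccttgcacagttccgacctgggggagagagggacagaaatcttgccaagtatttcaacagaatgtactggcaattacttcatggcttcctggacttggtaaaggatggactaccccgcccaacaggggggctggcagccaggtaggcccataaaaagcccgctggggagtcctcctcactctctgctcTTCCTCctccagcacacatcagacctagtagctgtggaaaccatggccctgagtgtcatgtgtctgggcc
S100a8 held 1 match to the C/EBP letters and 2 to the PU.1 letters, S100a9 held 2 and 0, Retnlg 1 and 0, and Lcn2 1 of each, and the matches do not overlap. Over 32851 mouse promoters of the same length, 40.7% held the C/EBP letters and 28.3% the PU.1 letters, so such matches are common. They describe the letters in these windows and are no measure of binding.

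A grouping of all 415 members by their most variable genes gave 4 clusters, which are described by the genes that lead them and were built from those same genes. The first, with 5 niche and 57 distal cells, was led by the interferon-induced genes Ifit3b, Ifit1, Rsad2 and Oasl1, and held Isg15, a ubiquitin-like modifier, with 4911 CPM among its niche cells and 6458 CPM among its distal cells. Its 5 niche cells had 0 UMIs of Ifit3b, Ifit1 and Oasl1 and 5 of Rsad2, so the leading genes describe its distal cells. The second, with 12 niche and 133 distal cells, was led by Gadd45b, Ccrl2, Hcar2, Tnfaip3 and Nfkbia, of which the last 2 are inhibitors of NF-kB that NF-kB itself induces, and by Cxcl2 further down. The third, with 8 niche and 134 distal cells, was led by BC100530, Retnlg, Ly6g and Lcn2 and had the highest median S100 share, 24.2%; its niche cells held 1 UMI of BC100530, against 19 in the niche cells of the second. The fourth, with 5 niche and 61 distal cells, was led by H2-DMa, Ms4a4c, Camk2d and Msr1, none of them a neutrophil marker, and had a median of 5019 UMIs; 46 of its 66 cells held over 4000 UMIs and 46 carried 2 or more markers of another cell type. It is left without a name. In percent, the clusters held 16.7, 40.0, 26.7 and 16.7 of the 30 niche members and 14.8, 34.5, 34.8 and 15.8 of the 385 distal members, though the niche cells did not carry all of the leading genes. A finer resolution gave 7 clusters, and leaving out the genes of the rule gave 3, so the number of groups is a matter of setting.

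**Figure D4:**
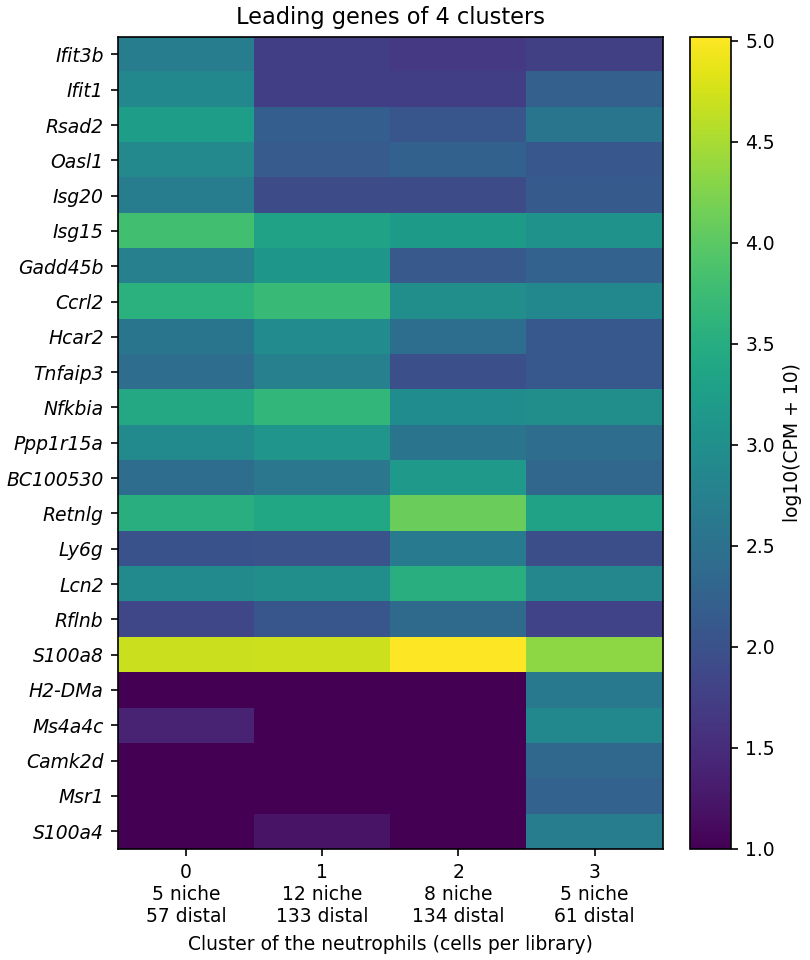
Levels of leading genes, at most 6 for each of 4 clusters of neutrophils, as log10 of CPM plus 10, with clusters 0 to 3 from left to right and their niche and distal cells under each. The genes were chosen because they lead a cluster, so the brighter blocks along the diagonal show what defines the groups; S100a8 is bright in all columns and the genes of the fourth cluster are near 0 in the other columns.

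Between niche and distal neutrophils, most genes compared differed by less than 2-fold. Of 705 genes with a mean of at least 200 CPM and at least 30 UMIs, 65 were at least 2-fold higher in niche neutrophils (9.22%) and 11 at least 2-fold lower (1.56%), and the median log2 ratio of niche over distal CPM was 0.02. Among genes of the rule, which select the cells alike in both libraries, Csf3r had 1412 CPM in niche and 1295 CPM in distal cells (log2 0.13, -0.19 to 0.43), Cxcr2 had 757 CPM in niche and 887 CPM in distal cells (-0.22, -0.67 to 0.18). Outside the rule, Il1b differed by -0.15 (-0.24 to -0.07), Trem1 by -0.01 (-0.40 to 0.35) and Mcl1 by -0.01 (-0.23 to 0.20). Of 24 mature neutrophil genes compared 1 was at least 2-fold higher and 0 lower (median -0.13). Of 15 NF-kB inflammatory genes 2 were higher and 0 lower (median 0.02), of 14 receptor genes 2 were higher and 1 lower (median -0.01), and of 25 adhesion and migration genes 0 were higher and 0 lower (median -0.06). Cxcl2 was lower in niche cells by 0.68 on the log2 scale (-0.88 to -0.48). The niche library was counted with a later software version and another gene list than the distal library. Of the 705 genes, 108 either overlap a gene of 1 list only or shifted at least 2-fold the same way in lymphocyte barcodes. Without these 108 genes, 25 were at least 2-fold higher in niche neutrophils and 9 at least 2-fold lower, so many of the higher genes are among them.

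Several interferon and chemokine genes were higher in the sum of niche neutrophils. Of 13 interferon gamma genes compared 7 were at least 2-fold higher and 0 lower (median 1.22), of 10 type I interferon genes 3 were higher and 0 lower (0.83), of 8 chemokine genes 5 were higher and 0 lower (3.05), and of 6 MHC class II genes 1 was higher and 0 lower (0.92). Of 7 MHC class I genes 0 were higher and 0 lower (0.29). These counts include genes that overlap a gene of 1 list only or shifted alike in lymphocyte barcodes. Without such genes the chemokine median was -0.16. Gbp4, an interferon-induced guanylate-binding protein, had 27 UMIs in niche and 28 in distal neutrophils (393 and 38.1 CPM, log2 3.37, 2.55 to 4.18), but 26 of the niche and 28 of the distal UMIs were in members with over 4000 UMIs, 13 of them in 1 niche barcode. Gbp7 had 364 CPM in niche and 106 CPM in distal cells (1.80, 1.07 to 2.44). Capg, which caps actin filaments, had 320 CPM in niche and 84.3 CPM in distal cells (1.95, 1.15 to 2.65), Tpm3, a tropomyosin, 655 CPM in niche and 231 CPM in distal cells (1.51, 0.99 to 1.98), and Zcchc6, an RNA uridylyltransferase, 320 CPM in niche and 110 CPM in distal cells (1.56, 0.79 to 2.23).

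Much of this came from the 4 deep niche members. Spp1, which encodes osteopontin, had 3231 CPM in niche and 40.8 CPM in distal neutrophils, but 218 of its 222 niche UMIs were in a single barcode of 14132 UMIs, and without the deep members it had 2 niche and 16 distal UMIs. Ccl5, a T cell chemokine, had 1586 CPM in niche and 135 CPM in distal cells, with 93.6% of its niche UMIs in the deep members, and without these 7 niche and 16 distal UMIs (log2 2.62, 1.04 to 3.93). The level of Ccr2, the monocyte homing receptor, was 538 CPM in niche and 170 CPM in distal cells, with 91.9% of its niche UMIs in the deep members. Crip1 had 1382 CPM in niche and 730 CPM in distal cells, and the deep members held 100% of its niche UMIs; the other members held 0 niche and 56 distal UMIs of Crip1. Rsad2, an antiviral enzyme, had 902 CPM in niche and 316 CPM in distal cells, with 50 of its 62 niche UMIs in 1 deep member. Beside these levels, the summed CPM of 25 macrophage markers was 6112 in niche and 3108 in distal neutrophils, and that of 13 classical monocyte markers 7218 in niche and 5685 in distal neutrophils. Those of 16 alveolar macrophage, 15 T cell and 14 B cell markers were lower in the niche, at 509, 29.1 and 87.3 CPM, against 1051, 212 and 733 CPM in distal neutrophils. Of the defining markers Vcan, F13a1, Marco, Ear2, Fabp4, Cd3e, Trac, Cd79a and Ms4a1 were at 0 in niche neutrophils, and Marco, Il5ra, Epx, Prg2, Mcpt8 and Cpa3 at 0 in distal neutrophils. The part of these other markers in the niche differences was not tested.

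Without the deep members, 26 niche and 342 distal neutrophils were left, and 24 of 626 genes were at least 2-fold higher in the niche (3.83%) and 18 at least 2-fold lower (2.88%). The excess of higher over lower genes was then small. Of 6 type I interferon genes 0 were higher and 0 lower (median -0.25), and Isg15 had 2225 CPM in niche and 2347 CPM in distal cells (log2 -0.07, -0.44 to 0.27). Rsad2 stood at -0.32 (-1.55 to 0.57), the other way from its value over all members. Of 3 chemokine genes 1 was higher, Cxcl10, with 525 CPM in niche and 203 CPM in distal cells (1.40, 0.53 to 2.13), and 0 were lower. The 17 niche UMIs of Cxcl10 lay in 15.4% of the 26 cells, and 15 of them in cells at or below the median S100 share, where all 4 carriers of other markers are. Leaving out carriers in place of deep members, 0 of 3 chemokine genes were higher and Cxcl10 differed by 0.48 (-0.40 to 1.19). Tpm3 remained higher in the niche at 1.21 (0.31 to 1.94), while the intervals of Gbp7, Capg and Ccr2 then included 0. Vim, the filament protein vimentin, had 958 CPM in niche and 402 CPM in distal cells (1.27, 0.65 to 1.81), as an addition chosen after its values were seen.

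MHC class II genes stayed higher in the niche without the deep members. All 4 compared were at least 2-fold higher: Cd74 with 1360 CPM in niche and 523 CPM in distal cells (log2 1.39, 0.88 to 1.85), H2-Aa with 556 CPM in niche and 174 CPM in distal cells (1.71, 0.85 to 2.43), H2-Ab1 with 711 CPM in niche and 162 CPM in distal cells (2.15, 1.38 to 2.83) and H2-Eb1 with 711 CPM in niche and 181 CPM in distal cells (2.0, 1.24 to 2.66). The same genes were higher in niche lymphocyte barcodes too, by 1.40, 1.56, 1.69 and 1.51 on the log2 scale. Cd74 was far higher in non-members than in neutrophils, with 18709 CPM among niche non-members and 10105 CPM among distal non-members. Cxcl9, a chemokine induced by interferon gamma, shows the same: it had a UMI in 42.3% of these niche and 0.585% of these distal neutrophils, and in 46.7% of niche and 5.15% of distal lymphocyte barcodes. Free RNA of other cells and RNA made in niche neutrophils cannot be told apart for such genes.

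Few genes were lower in niche neutrophils, 4 of them from the list of secondary granule genes, which also holds the membrane protein gene Ifitm6. Lcn2 had 553 CPM in niche and 1476 CPM in distal neutrophils (log2 -1.40, -1.92 to -0.95) and Ifitm6, an interferon-induced membrane protein, 146 CPM in niche and 416 CPM in distal cells (-1.45, -2.59 to -0.62). The share of cells with an Lcn2 UMI was 50% of niche and 45.7% of distal neutrophils, and without the deep members Lcn2 differed by -0.59 (-1.15 to -0.11) and Ifitm6 by -0.58 (-2.16 to 0.47). Of the 11 secondary granule genes 0 were at least 2-fold higher and 4 lower, namely Camp, Ngp, Lcn2 and Ifitm6 (median -0.52); without the deep members 0 of 8 were higher and 0 lower (median -0.01). C5ar1, the receptor for the complement fragment C5a, had 175 CPM in niche and 457 CPM in distal cells (-1.33, -2.35 to -0.56), and -0.66 (-1.68 to 0.12) without the deep members. Nr4a1 had 262 CPM in niche and 589 CPM in distal cells (-1.13, -1.94 to -0.49) and remained lower without the deep members (-1.29, -2.72 to -0.33), and it was the 1 gene lower among 22 immediate early genes, of which 0 were higher; Fos differed by -0.02 and Junb by -0.30 over all members. Scgb1a1, the secretory protein of airway club cells, had 0 UMIs in niche and 507 in distal neutrophils, and was likewise lower in niche lymphocyte barcodes, where 0% of niche and 5.70% of distal barcodes had a UMI.

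**Figure D5:**
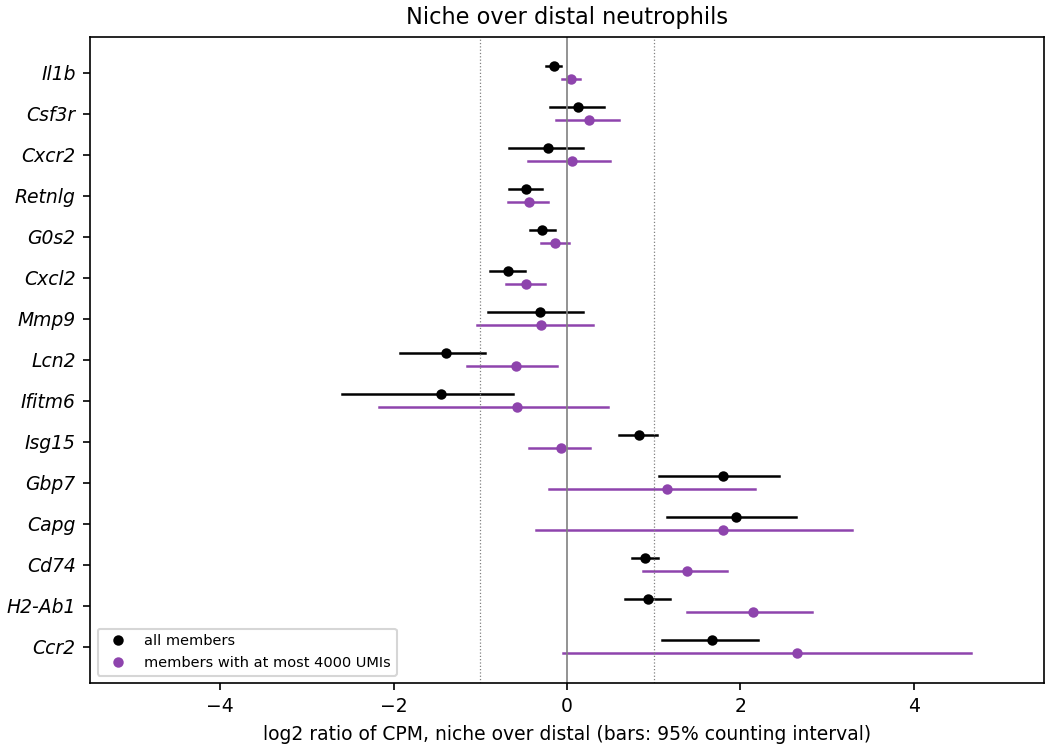
Log2 ratio of summed CPM, niche over distal, of 15 genes, with 95% counting intervals, over all members (black, upper point of each pair) and over members with at most 4000 UMIs (purple, lower point). Dotted lines mark 2-fold. Neutrophil genes from Il1b to Mmp9 lie between the dotted lines in both sets, Isg15 stands at 0.83 over all members and at -0.07 without the deep ones, and Cd74 and H2-Ab1 lie further up without them.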

How the data were processed

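Droplet 3′ RNA libraries of sorted immune cells were analysed, 1 niche and 1 distal, grouped by sample title. The deposited matrices hold UMI counts, not normalized, per gene and barcode. Per the file headers, the distal matrix was made with Cell Ranger 3.0.2 and the niche matrix with 6.0.0, whereas the submitters' processing notes list Bowtie2, RSEM, Seurat 4.1.1 and Cell Ranger 3.02, without roles. Software version and gene list thus cannot be told apart from the group. Of 32285 niche and 30149 distal gene rows, 29413 shared an Ensembl identifier and were compared; 442 of these overlap, on the same strand in GENCODE M21, a gene of 1 list only.

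Members were found by the rule given with the results, and members and gene lists were chosen with earlier results of these data known. No doublet caller was run; members with 2 or more defining markers of another type, or with over 4000 UMIs, were left out in alternatives. Lymphocyte barcodes held at least 3 of 8 T and B cell genes. UMIs were summed per library and scaled to CPM; log2 ratios had 0.5 UMI added, with exact conditional binomial intervals, and shares had Clopper-Pearson intervals, all 95%. No p-value was computed, because cells are not replicates. Member totals were 68720 niche and 735252 distal UMIs.

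Named genes were the 15 highest and 15 lowest ratios among compared genes that were not mitochondrial, ribosomal, receptor segment or unnamed genes or genes of the rule, did not overlap a gene of 1 list, had an interval beyond 1.5-fold, did not shift at least 2-fold the same way in lymphocyte barcodes, and were no lower in members than in non-members of the library where they were higher. This left 10 higher and 4 lower, of which some are not reported here; 8 more, all higher, missed only the last condition. Examples from lists were the 2 highest and the 2 with the largest ratio, and the 20 highest genes per library; other genes were named for their role or after their values were seen. Clusters came from the Leiden method at resolution 0.5, on 15 neighbours in 15 principal components of 1000 variable genes (scanpy 1.11.5, igraph 0.11.9). Quartile genes needed 60 UMIs. Tables were handled with pandas 2.3.3 and numpy 2.4.6, intervals with scipy 1.17.1 and figures with matplotlib 3.10.9, under Python 3.11.15. The ratio step was run on simulated counts drawn independently for each gene. That run checks the calculation only, since it leaves out the uneven spread of UMIs over cells seen here.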

Additional observations from a re-analysis of the deposited data

How the results depend on the processing

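No paired analysis was possible because each group is 1 library. The share ratio stayed between 0.0773 and 0.103 over 10 alternatives. The main count of 65 genes at least 2-fold higher in niche neutrophils became 41 with fewer than 3 complement and Ms4a7 UMIs, 107 with the rule applied to barcodes thinned to 800 UMIs, 33 without members with 2 or more markers of another type, 24 with at most 4000 UMIs (a limit chosen after seeing the data), 30 with the mean over cells, 18 with a mean of at least 500 CPM, and 992 with at least 10 UMIs and no CPM minimum. It became 25 without genes that overlap a gene of 1 list only or shifted at least 2-fold the same way in lymphocyte barcodes. The count of 11 lower became 27 thinned, 18 with at most 4000 UMIs, 18 without S100a8, S100a9, mitochondrial and ribosomal genes in the total, 3 with 500 CPM and 922 with no CPM minimum. The 4 clusters became 7 at resolution 1.0. The chemokine median of 3.05 became -0.015 without members with other markers, -0.080 with at most 4000 UMIs and -0.16 without genes that overlap or shifted in that way. Rsad2, at 1.52, became -0.41 with an S100 share of at least 5%, -0.80 with fewer than 3 complement and Ms4a7 UMIs, -0.24 without members with other markers and -0.32 with at most 4000 UMIs. The cause was not tested for any of these. Of 908 other values recomputed, 771 stayed within the limits set around the main value, such as its counting interval. A further 130 moved beyond them and 7 reversed. Only ratios of at least 2-fold in the main result could count as reversed, so changes of sign in smaller ones are not among the 7. The type I interferon median, for example, went from 0.83 over all members to -0.25 with at most 4000 UMIs. With 30 niche members, of a median of 1287 UMIs, genes with under 30 UMIs in both libraries together were not compared.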
